A study of Mus musculus with 16 samples.

Results

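Sarcomere and Z-disc genes encode the contractile filaments of muscle and the structures that anchor them. Here they are 45 genes out of 21281 tested, taken from general knowledge of muscle and found on the arrays by the RefSeq accession of their probes. They were chosen with earlier results of these data known, so their shares beside those of all genes are descriptions only. Of the 45, 12 belong to the thick filament, 16 to the thin filament, 14 to the Z-disc and its scaffold, and 3 are ankyrin repeat genes of muscle. By common usage 14 are fast-fibre isoforms, 9 are slow-fibre isoforms, and the other 22 were assigned to neither. All 45 were well above background on all 16 arrays, so none entered through a group in which it was high.

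Expression had been measured in the quadriceps of male mice aged 8 weeks, 4 mice per group with 1 array each. The groups were fasted mFoxO-TKO, fed mFoxO-TKO, fasted WT and fed WT mice. The mFoxO-TKO mice carry a Cre recombinase under the human skeletal α-actin (HSA) promoter that deletes Foxo1, Foxo3 and Foxo4 in skeletal muscle, so other cells of the tissue keep these genes. Fasted mice spent 24 h without food in individual cages, and fed mice ate ad libitum. Because whole muscle was taken, fewer cells of a type and less RNA per cell cannot be told apart.

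In a sarcomere, myosin thick filaments pull on actin thin filaments, and troponin and tropomyosin switch the pull on with calcium. Thin filaments are anchored at the Z-disc, where scaffold and signalling proteins also sense load. Fast and slow fibres use different isoforms of many of these proteins, and mouse quadriceps is mostly a fast muscle. FoxO factors, which insulin signalling keeps out of the nucleus, are known as drivers of muscle protein breakdown in fasting.

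Values below are log2 signals relative to the 75th percentile of the array (0 is the signal at that percentile), and changes are given as the difference between the means of 2 groups ± SE. They describe 1 probe per gene, the brightest, and levels of different genes cannot be compared. A gene passed where its adjusted p was under 0.05 in the limma fit, with Benjamini-Hochberg adjustment over all 21281 genes. Such p-values set a difference only against the spread between these mice, and with no slide term that spread includes differences between slides. Slide 1 held replicates 1 and 2 and slide 2 replicates 3 and 4 of every group. Within a slide each group filled 1 array column, so array position and group cannot be told apart. Between 44.99% and 75.2% of an array's spots were marked as well above background, and 0 were saturated. All 8 skeletal muscle markers (such as Ckm and Pygm) were well above background on all 16 arrays. Fasted mFoxO-TKO replicate 1 stood apart, with 16.7% of its spots in areas that deviated from the other arrays of its group, against at most 1.56% on any other array. Of the 45 genes, 44 were higher on slide 1 within groups (median difference 0.30), as were 70.8% of all genes (median 0.17).

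The knockout was checked on the deleted genes. Foxo1 was at 2.12, 1.78, 1.77 and 1.88 in fasted mFoxO-TKO muscle and 5.98, 5.23, 5.004 and 4.92 in fasted WT muscle, a change of -3.40 ± 0.23 (adjusted p = 3.41e-07, limma). No mFoxO-TKO array had Foxo4 well above background, and Foxo4 was at least 6.14-fold lower in fasted and at least 6.62-fold lower in fed mFoxO-TKO than in WT muscle. Such a bound sets the WT mean against the lowest signal still well above background on each mFoxO-TKO array. Foxo3 did not pass in either feeding state (-0.75 ± 0.27 fasted, 0.74 ± 0.27 fed). Where the probes lie relative to the deleted parts is not known here.

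Promoters were read for 34 of the 45 genes from RefSeq windows (GRCm38.p6), as the 250 bases before each annotated start. Shown are those of 7 genes that changed with fasting or knockout and, for comparison, of the fast myosin Myh4, which did not pass in any comparison. Promoters of Xirp1, Mylk2, Lmod3 and Myoz3 were not used here, and the first of 2 overlapping Flnc windows is not shown. Capitals mark motif matches on either strand. The motif searched for FoxO factors was GTAAACA. The MCAT motif was CATTCC, the E-box was CANNTG and the TATA box was TATAAA, and the CArG box and the MEF2 site are given by name.
Csrp3 start 1: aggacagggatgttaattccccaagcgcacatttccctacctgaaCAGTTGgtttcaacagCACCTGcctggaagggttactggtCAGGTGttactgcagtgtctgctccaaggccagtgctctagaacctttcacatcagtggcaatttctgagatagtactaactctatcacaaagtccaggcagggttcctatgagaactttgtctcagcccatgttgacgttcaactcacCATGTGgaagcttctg
Csrp3 start 2: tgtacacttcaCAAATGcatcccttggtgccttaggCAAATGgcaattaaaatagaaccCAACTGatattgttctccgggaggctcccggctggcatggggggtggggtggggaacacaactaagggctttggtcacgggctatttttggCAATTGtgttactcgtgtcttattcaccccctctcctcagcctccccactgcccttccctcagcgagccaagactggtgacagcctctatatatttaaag
Flnc: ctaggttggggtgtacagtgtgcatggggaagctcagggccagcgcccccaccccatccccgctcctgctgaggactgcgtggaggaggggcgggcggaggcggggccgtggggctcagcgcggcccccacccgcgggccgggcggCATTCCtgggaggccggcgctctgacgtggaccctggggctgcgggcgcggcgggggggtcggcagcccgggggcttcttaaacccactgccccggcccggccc
Ankrd2: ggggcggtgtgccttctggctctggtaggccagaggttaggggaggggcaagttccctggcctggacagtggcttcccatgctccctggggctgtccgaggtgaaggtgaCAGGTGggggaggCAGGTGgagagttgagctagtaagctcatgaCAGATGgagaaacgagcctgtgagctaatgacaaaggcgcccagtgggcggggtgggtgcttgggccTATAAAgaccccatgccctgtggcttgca
Ankrd23 start 1: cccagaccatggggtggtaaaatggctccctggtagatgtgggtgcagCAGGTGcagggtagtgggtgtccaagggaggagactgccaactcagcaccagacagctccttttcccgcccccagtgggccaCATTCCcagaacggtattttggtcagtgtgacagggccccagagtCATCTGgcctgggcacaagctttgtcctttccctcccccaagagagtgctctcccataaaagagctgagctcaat
Ankrd23 start 2: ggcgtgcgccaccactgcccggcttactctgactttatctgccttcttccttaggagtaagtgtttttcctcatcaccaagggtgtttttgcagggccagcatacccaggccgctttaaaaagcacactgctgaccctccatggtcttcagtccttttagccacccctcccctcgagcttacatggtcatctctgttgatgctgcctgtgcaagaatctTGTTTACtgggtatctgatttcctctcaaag
Lmod2: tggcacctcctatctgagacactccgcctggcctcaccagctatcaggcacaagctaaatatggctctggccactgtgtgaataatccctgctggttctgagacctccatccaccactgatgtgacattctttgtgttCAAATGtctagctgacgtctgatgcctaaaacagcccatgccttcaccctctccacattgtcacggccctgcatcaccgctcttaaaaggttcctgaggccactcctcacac
Myoz2: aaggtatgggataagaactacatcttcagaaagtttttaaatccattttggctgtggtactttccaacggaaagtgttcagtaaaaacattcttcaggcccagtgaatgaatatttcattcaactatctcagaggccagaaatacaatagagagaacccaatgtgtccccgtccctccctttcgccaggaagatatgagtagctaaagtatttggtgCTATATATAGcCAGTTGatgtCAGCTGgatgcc
Mybph: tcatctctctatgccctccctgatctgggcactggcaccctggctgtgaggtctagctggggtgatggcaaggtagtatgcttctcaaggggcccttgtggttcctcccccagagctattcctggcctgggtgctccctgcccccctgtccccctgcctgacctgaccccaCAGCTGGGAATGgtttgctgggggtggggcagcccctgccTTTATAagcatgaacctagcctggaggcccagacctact
Myh4: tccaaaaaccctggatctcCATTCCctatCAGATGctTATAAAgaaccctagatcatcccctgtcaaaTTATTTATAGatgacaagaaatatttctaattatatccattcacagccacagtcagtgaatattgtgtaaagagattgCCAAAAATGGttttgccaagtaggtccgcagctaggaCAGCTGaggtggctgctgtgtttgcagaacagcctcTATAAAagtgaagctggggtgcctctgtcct

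The lines above run 5′ to 3′ on the gene's strand. Csrp3 has 2 annotated starts, at chr7:48843672-48843921 (start 1) and chr7:48848052-48848301 (start 2), both on the minus strand. Ankrd23 has 2 as well, at chr1:36535740-36535989 (start 1) and chr1:36536557-36536806 (start 2), also minus. The second start of Flnc lies at chr6:29433006-29433255 (plus). Ankrd2 lies at chr19:42035777-42036026 (plus), Lmod2 at chr6:24597521-24597770 (plus), Myoz2 at chr3:123034988-123035237 (minus), Mybph at chr1:134193198-134193447 (plus) and Myh4 at chr11:67237562-67237811 (plus). The capitals in Csrp3 and Lmod2 are E-boxes, and Ankrd2 holds 3 E-boxes and a TATA box 29 to 24 bases before the start. Flnc holds an MCAT match 104 to 99 bases before its second start. Ankrd23 holds 2 E-boxes and an MCAT match before start 1, and a FoxO match 31 to 25 bases before start 2. Myoz2 holds a MEF2 site 33 to 24 bases before the start and 2 E-boxes. In Mybph an E-box and an MCAT match lie side by side, followed by a TATA box. Myh4 holds matches to all motifs but FoxO, and its MEF2 site overlaps a TATA box match. The FoxO motif was found in 1 of the 34 genes (Ankrd23), the MCAT motif in 14 and the E-box in 28. These motifs occurred in 3.17%, 12.6% and 66.2% of 32851 promoter windows. The MEF2 site and the CArG box were each found in 5 of the 34 genes and in 1.69% and 1.47% of windows. The TATA box was in 8 of the 34 and in 12.4% of windows. A gene can have several windows here, and a match is a description of letters only.

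Fasting raised a small set of Z-disc and filament genes in both genotypes, while the myosins, actins, troponins and tropomyosins did not pass on their brightest probes. In mFoxO-TKO muscle 6 of 45 genes rose and 0 fell (13.3%), against 8.51% of all genes called in this comparison, 4.29% higher and 4.22% lower. In WT muscle 7 rose and 3 fell (22.2%), against 20.8% of all genes, 11.2% higher and 9.57% lower, so the members' share was near the background. Csrp3, Ankrd2, Lmod2, Xirp1, Mylk2 and Myoz2 rose in both genotypes, Flnc rose in WT muscle, and Mybph, Lmod3 and Ankrd23 fell in WT muscle. Of these genes only Mybph passed a test of the difference between the changes of the genotypes. The median change of the 45 genes was 0.23 in mFoxO-TKO and 0.08 in WT muscle, beside 0.04 and 0.02 for all genes.

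**Figure D1:**
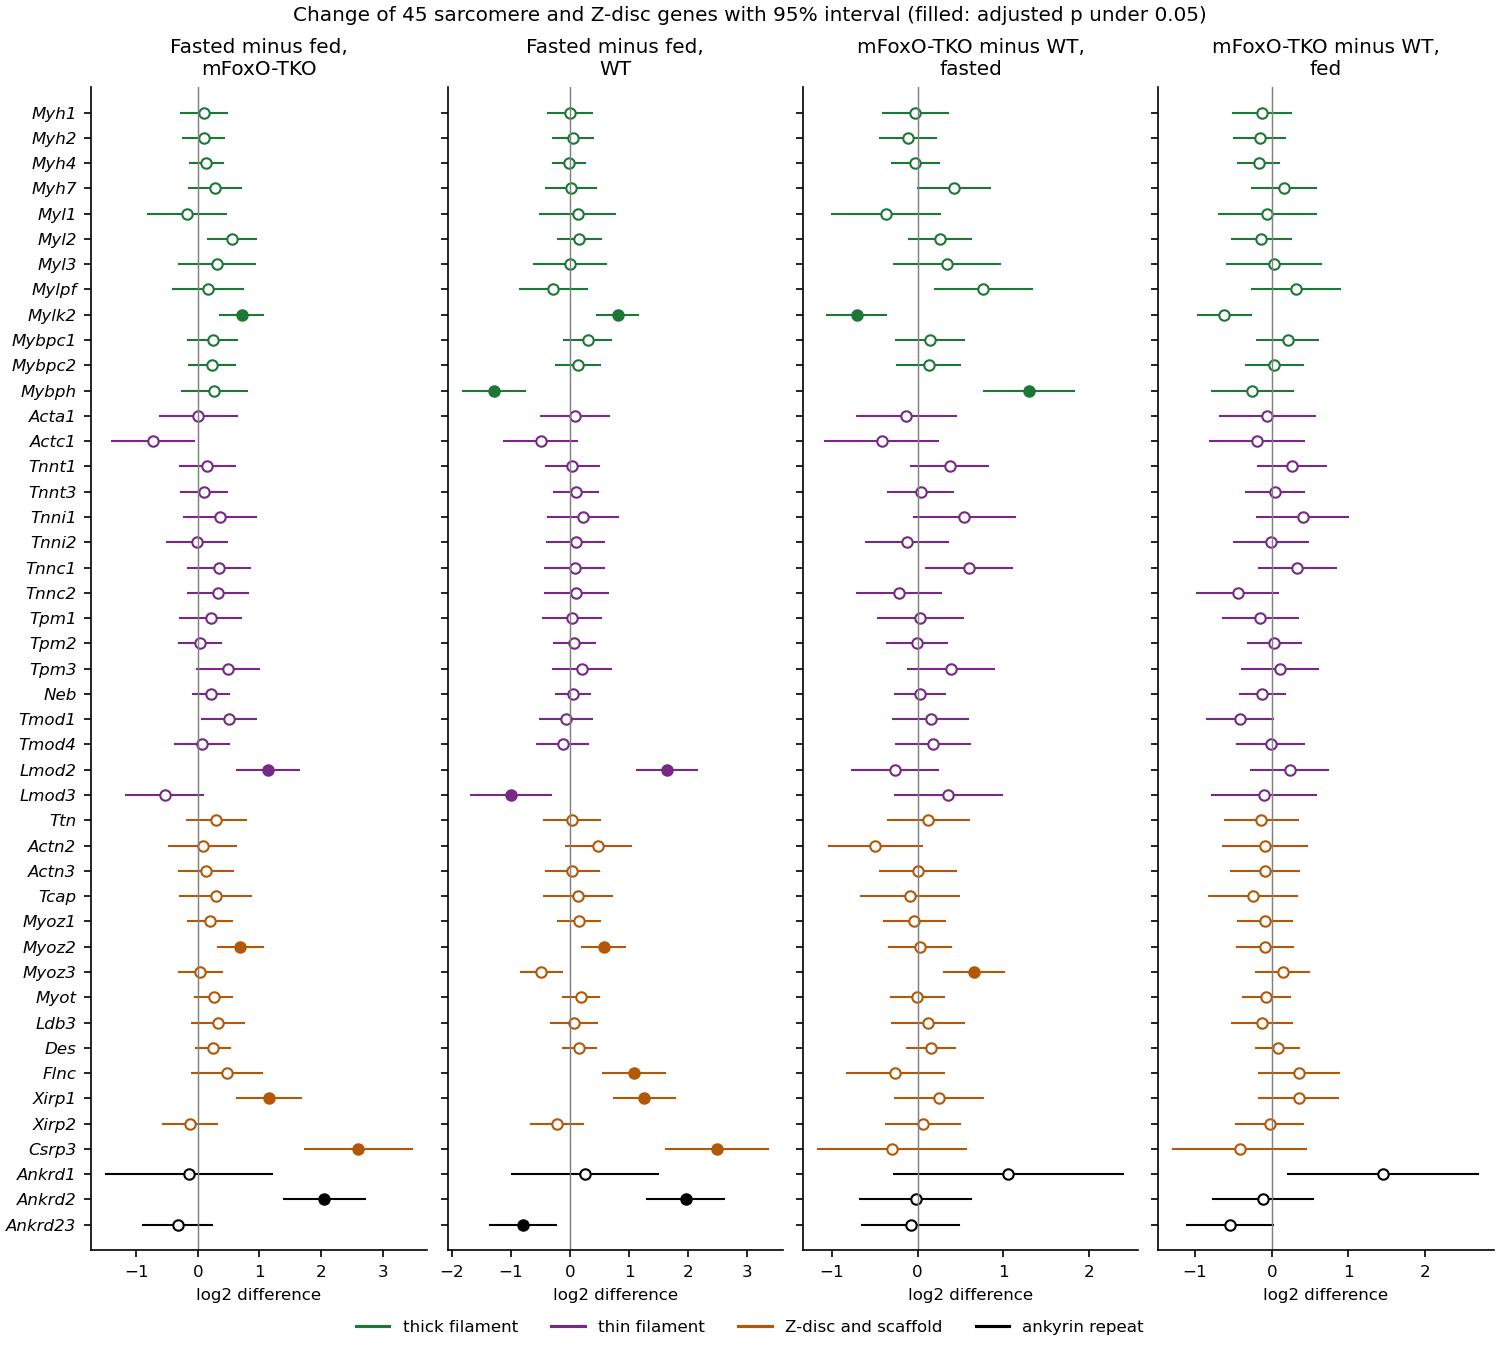
Log2 difference (x axis) of each of the 45 genes (rows, coloured by role) in 4 comparisons, with 95% intervals; filled points passed at an adjusted p under 0.05. Filled points are few: 6 for fasting in mFoxO-TKO, 10 for fasting in WT, 3 for knockout in fasted muscle and 0 for knockout in fed muscle.

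Among the 12 thick filament genes, Mylk2 and Mybph changed with fasting. That is 1 of 12 in mFoxO-TKO (8.33%) and 2 of 12 in WT muscle (16.7%), no larger than the 8.51% and 20.8% of all genes. Mylk2, the skeletal muscle kinase that phosphorylates the myosin regulatory light chain, was at 7.89, 7.69, 7.46 and 7.36 in fasted and 7.09, 6.90, 6.68 and 6.87 in fed mFoxO-TKO muscle. In WT muscle it was at 8.66, 8.38, 8.07 and 8.14 fasted and 7.72, 7.55, 7.41 and 7.33 fed. Every fasted array of a genotype lay above every fed array of it. Mylk2 rose by 0.71 ± 0.16 in mFoxO-TKO (adjusted p = 0.0128, limma) and by 0.81 ± 0.16 in WT muscle (adjusted p = 0.00226), folds of 1.64 and 1.75.

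Mybph, a relative of myosin-binding protein C on the thick filament, passed in WT muscle and not in mFoxO-TKO muscle. It was at 6.73, 6.29, 6.003 and 5.95 in fasted and 6.10, 5.92, 5.98 and 5.88 in fed mFoxO-TKO muscle, groups that overlapped. In WT muscle it was at 4.94, 5.69, 4.82 and 4.32 fasted and 6.63, 6.08, 5.98 and 6.21 fed, with no overlap. The change was 0.27 ± 0.25 in mFoxO-TKO (adjusted p = 0.58, limma) and -1.28 ± 0.25 in WT muscle (adjusted p = 0.00164, a fold of 2.44). The difference between these changes, tested as an interaction, was 1.56 ± 0.35 (95% interval 0.81 to 2.30, adjusted p = 0.0432). Mybph was the 1 gene of 45 to pass this test (2.22%), against 1.15% of all genes. Of all genes, 0.423% had a more positive and 0.724% a more negative fasting change in mFoxO-TKO than in WT muscle. With 1 gene the members cannot be set apart from that background. The interaction call of Mybph was lost on leaving out any of 14 of the 16 arrays, with adjusted p up to 0.0976 and values from 1.35 to 1.81. The exceptions were fasted mFoxO-TKO replicate 1 and fasted WT replicate 2.

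The other 10 thick filament genes did not pass in either fasting comparison. They include the fast myosin heavy chains Myh1, Myh2 and Myh4, the slow heavy chain Myh7, the light chains Myl1, Myl2, Myl3 and Mylpf, and the myosin-binding proteins Mybpc1 and Mybpc2. Myh4, the heavy chain of the fastest fibres, was at 8.17, 7.98, 7.75 and 7.73 in fasted and 7.89, 7.81, 7.77 and 7.63 in fed mFoxO-TKO muscle. It was at 8.02, 8.04, 7.77 and 7.90 in fasted and 7.98, 7.83, 7.92 and 8.04 in fed WT muscle. The groups overlapped, with 95% intervals of -0.13 to 0.41 in mFoxO-TKO and -0.28 to 0.26 in WT muscle. Among those 10, the largest estimate was that of Myl2, a slow regulatory light chain, in mFoxO-TKO muscle (0.56 ± 0.18, adjusted p = 0.0769, limma; n = 3 fed arrays, as an uneven spot was left out). Heavy chain probes may share signal with near-identical paralogs, so single isoforms are uncertain.

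Among the 16 thin filament genes, the leiomodins changed and the actins, troponins, tropomyosins, nebulin and tropomodulins did not pass. That is 1 of 16 in mFoxO-TKO (6.25%) and 2 of 16 in WT muscle (12.5%), below the 8.51% and 20.8% of all genes. Leiomodins start actin filaments and set their length at the pointed end. Lmod2 was at 1.33, 1.22, 1.22 and 0.86 in fasted and 0.30, -0.30, 0.05 and 0.00 in fed mFoxO-TKO muscle. It was at 2.23, 1.21, 1.002 and 1.24 in fasted and 0.06, -0.48, -0.05 and -0.42 in fed WT muscle, so fasted arrays lay above fed ones in both genotypes. Lmod2 rose by 1.14 ± 0.24 in mFoxO-TKO (adjusted p = 0.00734, limma) and by 1.64 ± 0.24 in WT muscle (adjusted p = 0.00016), folds of 2.21 and 3.12.

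Lmod3, the leiomodin that predominates in skeletal muscle, moved the other way in WT muscle. It was at 6.77, 6.58, 5.61 and 5.86 in fasted and 6.20, 7.16, 6.81 and 6.79 in fed mFoxO-TKO muscle. It was at 6.30, 6.24, 5.40 and 5.44 in fasted and 7.08, 6.75 and 6.70 in fed WT muscle (fed replicate 3 left out as uneven). The WT groups did not overlap and the mFoxO-TKO groups did. The change was -0.53 ± 0.29 in mFoxO-TKO (adjusted p = 0.32, limma) and -0.997 ± 0.32 in WT muscle (adjusted p = 0.0378). The difference between these changes did not pass the interaction test. The WT call was lost without fed WT replicate 1, 2 or 4 or fasted WT replicate 3 or 4, with values from -1.07 to -0.85 and adjusted p up to 0.126.

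Of the thin filament genes that did not pass, the cardiac actin gene Actc1 had the lowest estimates, -0.72 ± 0.31 in mFoxO-TKO (adjusted p = 0.19, limma; n = 3 fasted arrays) and -0.50 ± 0.29 in WT muscle (adjusted p = 0.27). Its mFoxO-TKO value passed without fasted WT replicate 3, an array outside that contrast that sets the shared spread (adjusted p = 0.0352). The skeletal actin gene Acta1 was at 0.01 ± 0.29 and 0.08 ± 0.27 (1 fed mFoxO-TKO array left out), and its probe may share signal with Actc1. The largest positive estimate that missed was that of Tmod1, a pointed-end capping protein, in mFoxO-TKO muscle (0.50 ± 0.21, adjusted p = 0.16). Of all 45 genes, the 95% interval lay within 1 log2 unit of 0 for 35 of the 39 that did not pass in mFoxO-TKO and for 32 of the 35 in WT muscle.

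The Z-disc list held the largest change. Of its 14 genes, 3 passed in mFoxO-TKO (21.4%, against 8.51% of all genes) and 4 in WT muscle (28.6%, against 20.8%). Csrp3 encodes muscle LIM protein, a Z-disc and nuclear protein tied to load sensing. It was at 6.98, 5.82, 5.55 and 5.49 in fasted and 3.24, 3.10, 2.86 and 4.23 in fed mFoxO-TKO muscle. In WT muscle it was at 6.68, 6.35, 5.76 and 6.24 fasted and 3.41, 3.93, 4.78 and 2.98 fed. Fasted and fed arrays were apart in both genotypes, although fed mice varied widely. The rise was 2.603 ± 0.41 in mFoxO-TKO (adjusted p = 0.00128, limma) and 2.48 ± 0.41 in WT muscle (adjusted p = 0.000479), folds of 6.08 and 5.59.

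Xirp1, an actin-binding repeat protein known from muscle remodelling and repair, was at 5.05, 4.05, 4.04 and 3.63 in fasted and 2.98, 3.23, 2.94 and 3.02 in fed mFoxO-TKO muscle. It was at 3.59, 4.28, 3.73 and 4.17 in fasted and 2.51, 2.78, 2.78 and 2.67 in fed WT muscle, with no overlap in either genotype. It rose by 1.15 ± 0.24 in mFoxO-TKO (adjusted p = 0.00822, limma) and by 1.26 ± 0.24 in WT muscle (adjusted p = 0.00163). Its paralog Xirp2 did not pass (-0.13 ± 0.20 and -0.22 ± 0.20).

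Flnc, the muscle filamin that crosslinks actin near the Z-disc, was at 7.86, 7.13 and 6.66 in fasted mFoxO-TKO muscle (replicate 1 left out as uneven) and 6.95, 6.99, 6.55 and 6.499 in fed mFoxO-TKO muscle, with overlap. In WT muscle it was at 7.84, 7.76, 7.16 and 7.14 fasted and 6.31, 6.55, 6.56 and 6.14 fed, without overlap. The change was 0.47 ± 0.27 in mFoxO-TKO (adjusted p = 0.34, limma) and 1.09 ± 0.25 in WT muscle (adjusted p = 0.00581). The difference between them did not pass (-0.62 ± 0.36, 95% interval -1.39 to 0.16, adjusted p = 0.64).

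The calsarcins, which tie calcineurin to α-actinin at the Z-disc, come in a slow form (Myoz2) and fast forms (Myoz1 and Myoz3). Myoz2 was at 5.67, 5.62, 5.34 and 5.56 in fasted and 5.33, 4.67, 4.59 and 4.85 in fed mFoxO-TKO muscle. It was at 5.63, 5.54, 5.40 and 5.52 in fasted and 5.31, 4.69, 4.82 and 4.97 in fed WT muscle. All fasted arrays lay above the fed arrays, fed replicate 1 coming nearest in both genotypes. Myoz2 rose by 0.69 ± 0.17 in mFoxO-TKO (adjusted p = 0.0198, limma) and by 0.58 ± 0.17 in WT muscle (adjusted p = 0.0245). The mFoxO-TKO call was lost without fed mFoxO-TKO replicate 2 or 3 (0.63 and 0.60, adjusted p = 0.0707 and 0.0688). The WT call was lost without fed WT replicate 2, 3 or 4 or fasted WT replicate 1 (0.49 to 0.58, adjusted p up to 0.0819).

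Myoz1 was at 8.46, 8.39, 8.14 and 8.05 in fasted and 8.41, 8.12, 7.85 and 7.87 in fed mFoxO-TKO muscle. It was at 8.57, 8.53, 8.03 and 8.07 in fasted and 8.27, 8.15, 8.07 and 8.11 in fed WT muscle. These groups overlapped, and the change was 0.20 ± 0.17 and 0.15 ± 0.17 (adjusted p = 0.54 and 0.60, limma). Myoz3 did not pass either: it changed by 0.04 ± 0.16 in mFoxO-TKO (adjusted p = 0.92) and by -0.48 ± 0.16 in WT muscle (adjusted p = 0.0503), where the groups did not overlap. The WT value of Myoz3 passed in 11 alternatives. It was the same size and passed with slide as a block (adjusted p = 0.0255), with the replicate block (0.0221), with probes well above background on all arrays (0.0407) and without spots in uneven areas (0.0428). Under 3 other scalings it was -0.63 to -0.61 (adjusted p up to 0.00172), and on slide 2 alone -0.71 (adjusted p = 0.00943). It also passed without fasted WT replicate 1 or 2 or fasted mFoxO-TKO replicate 1 (-0.56 to -0.48, adjusted p = 0.0432, 0.0365 and 0.0165).

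The other Z-disc genes, titin (Ttn), the α-actinins Actn2 and Actn3, Tcap, Myot, Ldb3 and Des, did not pass in either fasting comparison. Actn2, an α-actinin that crosslinks actin filaments in all fibres, was at 5.48, 6.87, 6.96 and 6.81 in fasted and 6.70, 6.28, 6.37 and 6.46 in fed mFoxO-TKO muscle. It was at 7.19, 7.09, 6.75 and 7.07 in fasted and 6.56, 6.36, 6.67 and 6.58 in fed WT muscle. The fasted WT arrays lay above the fed ones, and the low fasted mFoxO-TKO replicate 1 had its spot in an uneven area. The change was 0.08 ± 0.26 in mFoxO-TKO and 0.48 ± 0.26 in WT muscle (adjusted p = 0.90 and 0.21, limma). With spots in uneven areas left out the values were 0.43 (adjusted p = 0.0774) and 0.48 (adjusted p = 0.0162), so that Actn2 then passed in WT muscle, and likewise without that array (adjusted p = 0.0119).

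The 3 ankyrin repeat genes, proteins of the titin spring region and the nucleus that respond to stretch, did not move together. With fasting 1 of 3 passed in mFoxO-TKO and 2 of 3 in WT muscle, too few to set beside the 8.51% and 20.8% of all genes. Ankrd2 was at 8.04, 7.64, 7.35 and 6.72 in fasted and 5.70, 5.21, 4.85 and 5.78 in fed mFoxO-TKO muscle. It was at 7.94, 7.89, 6.94 and 7.08 in fasted and 5.67, 5.58, 5.70 and 5.05 in fed WT muscle, and fasted and fed arrays did not overlap. Ankrd2 rose by 2.05 ± 0.31 in mFoxO-TKO (adjusted p = 0.00101, limma) and by 1.96 ± 0.31 in WT muscle (adjusted p = 0.000327), folds of 4.15 and 3.90.

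Ankrd23 was at 7.88, 7.57, 6.64 and 6.76 in fasted and 7.85, 7.55, 7.28 and 7.48 in fed mFoxO-TKO muscle. It was at 7.47, 7.84, 6.99 and 6.88 in fasted and 8.15, 8.06, 8.03 and 8.08 in fed WT muscle. Only the WT groups were apart. The change was -0.33 ± 0.26 in mFoxO-TKO (adjusted p = 0.53, limma) and -0.79 ± 0.26 in WT muscle (adjusted p = 0.0448). For Ankrd23 the difference between these changes was 0.46 and did not pass the interaction test. Its second probe gave -0.54 ± 0.24 (adjusted p = 0.20) and -1.14 ± 0.24 (adjusted p = 0.00315). The call of the brighter probe was lost without any of the 4 fed WT arrays, fasted WT replicate 1, 3 or 4 or fed mFoxO-TKO replicate 2, 3 or 4 (-0.85 to -0.65, adjusted p up to 0.126).

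Ankrd1 had the highest mean SD within groups of the 45 genes. It was at 3.88, 1.95 and 1.40 in fasted mFoxO-TKO muscle (replicate 1 left out as uneven) and 2.73, 3.41, 2.06 and 1.999 in fed mFoxO-TKO muscle. In WT muscle it was at 1.22, 2.08, 1.07 and 1.01 fasted and 0.25, 0.54, 2.78 and 0.80 fed, where 1 fed mouse was as high as mFoxO-TKO mice. The changes with fasting, -0.14 ± 0.63 and 0.25 ± 0.58, did not pass, and their 95% intervals of -1.48 to 1.20 and -0.99 to 1.49 leave room for large changes either way.

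**Figure D2:**
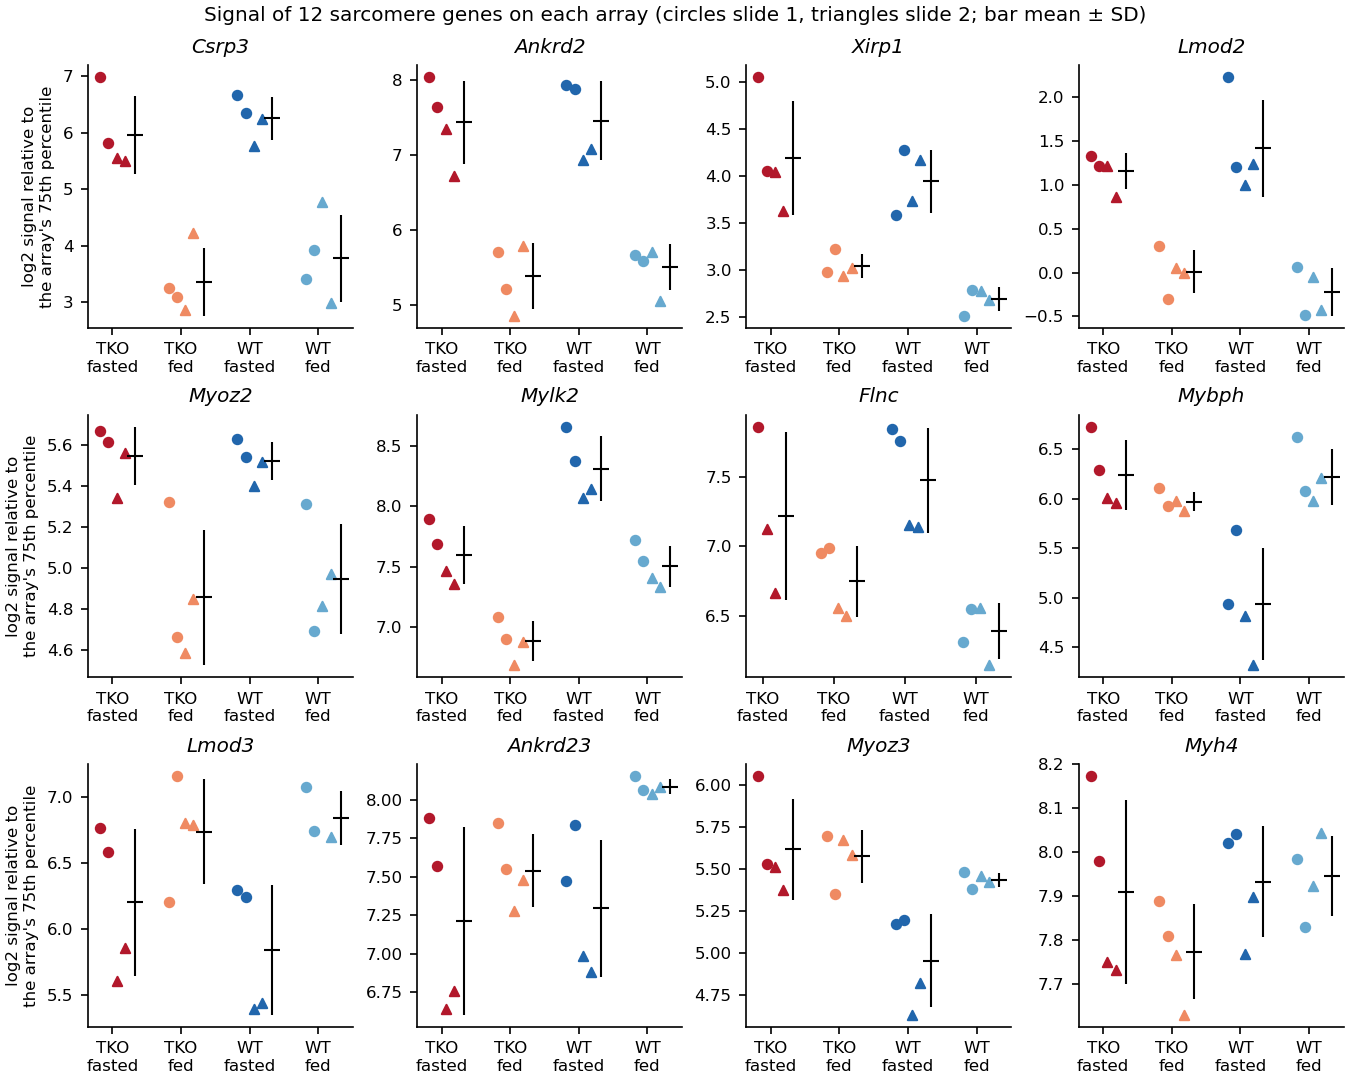
Signal (log2, relative to the array's 75th percentile) of 12 genes on each array, by group; circles are slide 1, triangles slide 2, and the bar is mean ± SD of 4 arrays (3 for Flnc in fasted mFoxO-TKO and Lmod3 in fed WT). Csrp3, Ankrd2, Xirp1, Lmod2, Myoz2 and Mylk2 are higher on all fasted than on all fed arrays of either genotype, whereas Myh4 overlaps throughout.

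The 6 genes that rose in both genotypes did not pass the interaction test. The difference of the 2 changes was 0.12 for Csrp3 (95% interval -1.10 to 1.34), 0.09 for Ankrd2 (-0.83 to 1.01), -0.10 for Xirp1 (-0.83 to 0.63), -0.50 for Lmod2 (-1.21 to 0.21), 0.11 for Myoz2 (-0.40 to 0.63) and -0.10 for Mylk2 (-0.59 to 0.39). The intervals for Csrp3, Lmod2 and Ankrd2 still span 0 widely, so a p above the threshold does not show equal rises. With slide as a block all 20 calls of the 5 comparisons held, in the same direction. Within single slides all 19 values that could be fitted on slide 1 and all 19 on slide 2 kept their direction, and 5 and 14 of them passed with 2 arrays per group. On slides 1 and 2 the rise of Csrp3 was 3.23 and 1.98 in mFoxO-TKO and 2.85 and 2.12 in WT muscle, and that of Ankrd2 was 2.39 and 1.72 and 2.29 and 1.63.

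Fast and slow isoforms were then compared. With fasting in mFoxO-TKO muscle the 9 slow isoforms had a median change of 0.34 and the 14 fast isoforms 0.14, beside 0.04 for all genes. In WT muscle the medians were 0.16 (slow), 0.08 (fast) and 0.02 (all). In each genotype 1 slow isoform (Myoz2) and 1 fast isoform (Mylk2) passed, 11.1% and 7.14% of their lists, against 8.51% of all genes in mFoxO-TKO and 20.8% in WT muscle. On slide 2 alone the fast median in WT muscle was -0.10, against 0.24 on slide 1, so its sign was not the same on both slides. The slow median in WT muscle was 0.03 on slide 2 and 0.27 on slide 1.

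**Figure D3:**
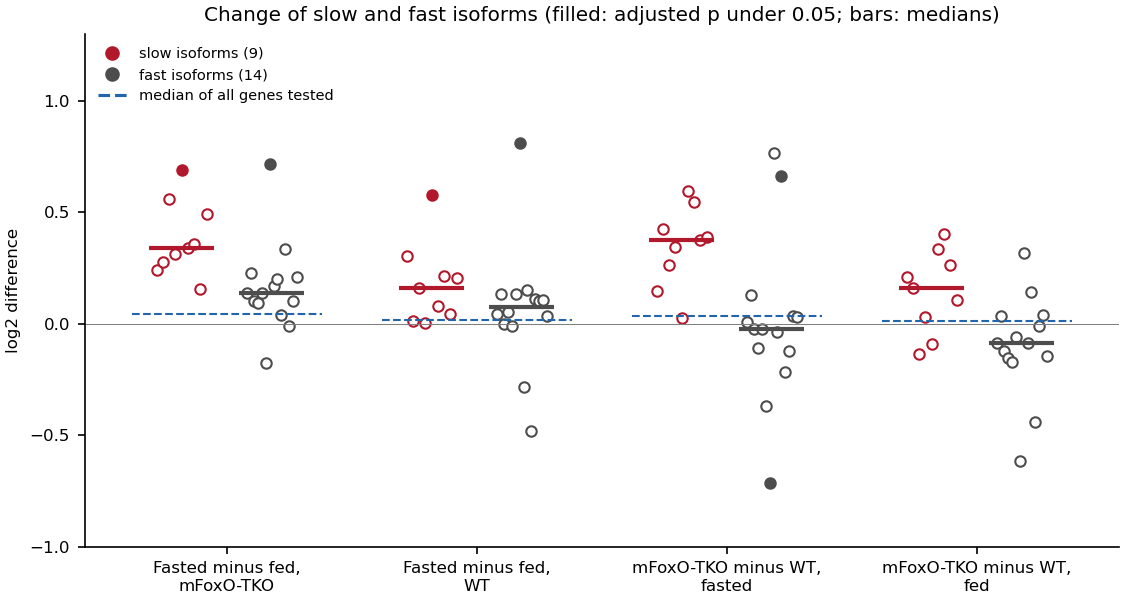
Log2 difference (y axis) of the 9 slow (red) and 14 fast (grey) isoforms in 4 comparisons; thick bars are list medians, the dashed line is the median of all genes tested, and filled points passed. Slow medians lie above fast medians in all 4, by most in fasted mFoxO-TKO minus fasted WT (0.38 and -0.02), where no slow isoform passed.

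For the knockout, few of these genes passed. In fasted muscle Mybph and Myoz3 were higher and Mylk2 was lower in mFoxO-TKO than in WT mice, 3 of 45 genes (6.67%), against 9.41% of all genes, 4.41% higher and 5.0% lower, a share no larger than the background. In fed muscle 0 of 45 passed in the limma fit (1.02% of all genes, 0.507% higher and 0.512% lower), while 2 (Mylk2 and Ankrd1) had an unadjusted p under 0.05, as did 9.52% of all genes. The median difference of the 45 genes was 0.03 in fasted and -0.07 in fed muscle, beside 0.04 and 0.01 for all genes. The knockout and fasting comparisons share arrays, so their values for a gene are not independent.

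Mybph was 1.303 ± 0.25 higher in fasted mFoxO-TKO than in fasted WT muscle (adjusted p = 0.00288, limma, a fold of 2.47), and no array of the first group, at 5.95 or more, came down to the highest of the second, at 5.69. In fed muscle it was at 5.88 to 6.10 in mFoxO-TKO and 5.98 to 6.63 in WT mice, a difference of -0.25 ± 0.25 (adjusted p = 0.95). Myoz3 was at 6.05, 5.53, 5.51 and 5.37 in fasted mFoxO-TKO and 5.17, 5.19, 4.63 and 4.82 in fasted WT muscle, which did not overlap. It was at 5.69, 5.35, 5.67 and 5.58 in fed mFoxO-TKO and 5.48, 5.38, 5.46 and 5.42 in fed WT muscle, which did. The difference was 0.66 ± 0.16 in fasted (adjusted p = 0.0175) and 0.14 ± 0.16 in fed muscle (adjusted p = 0.98). The fasted call was lost without fasted WT replicate 3 or 4 (0.55 and 0.62, adjusted p = 0.0599 and 0.0523), and the second Myoz3 probe did not pass (0.42 ± 0.20, adjusted p = 0.25).

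Mylk2 was lower in mFoxO-TKO muscle in both feeding states, with no overlap in either: the values above span 7.36 to 7.89 against 8.07 to 8.66 fasted, and 6.68 to 7.09 against 7.33 to 7.72 fed. The difference was -0.71 ± 0.16 in fasted muscle (adjusted p = 0.0104, limma). In fed muscle it was -0.62 ± 0.16, which did not pass (adjusted p = 0.10). It passed there with slide as a block (adjusted p = 0.00604) and in 4 further alternatives given below. Ankrd1 had the largest estimate in fed muscle, 1.46 ± 0.58 (adjusted p = 0.38), with overlapping groups.

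By role, the knockout comparison in fasted muscle called 2 of 12 thick filament genes, 0 of 16 thin filament genes, 1 of 14 Z-disc genes and 0 of 3 ankyrin repeat genes, against 9.41% of all genes. Slow isoforms had a median difference of 0.38 and fast isoforms -0.02 in fasted muscle, beside 0.04 for all genes, and 0.16 and -0.09 in fed muscle, beside 0.01. All 9 slow isoforms had an estimate above 0 in fasted muscle, as did 6 of 14 fast isoforms and 11620 of all 21281 genes. No slow isoform passed, and the 9 varied together between mice, as given below. The highest slow estimates were Tnnc1, the slow troponin C, at 0.60 ± 0.24 (adjusted p = 0.14, limma), Tnni1, the slow troponin I, at 0.55 ± 0.28 (adjusted p = 0.28) and Myh7 at 0.42 ± 0.20 (adjusted p = 0.23). The fast light chain Mylpf was at 0.77 ± 0.27 (adjusted p = 0.0915), and it passed without fasted WT replicate 2 (0.97, adjusted p = 0.0306), with slide as a block (0.77, adjusted p = 0.0357) and on slide 2 alone (0.55, adjusted p = 0.0469). Under 3 other scalings Myh7, Tnnc1 and Mylpf passed as well, which turned the split of calls from 2 higher and 1 lower to 5 and 1.

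**Figure D4:**
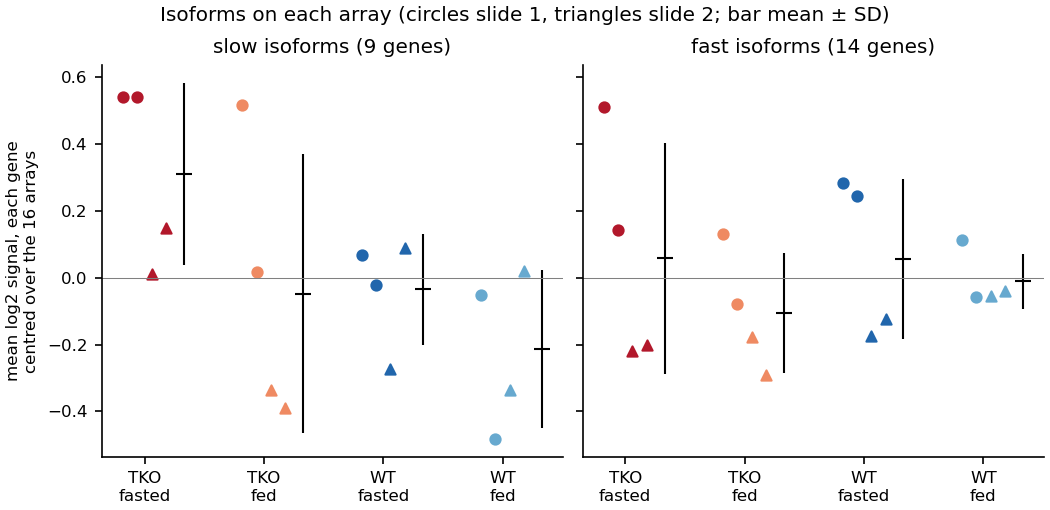
Mean signal of the 9 slow and 14 fast isoforms on each array (log2, each gene centred over the 16 arrays), by group; circles are slide 1, triangles slide 2, and the bar is mean ± SD of 4 arrays. The slow mean is 0.54, 0.54, 0.01 and 0.15 in fasted mFoxO-TKO and 0.07, -0.02, -0.27 and 0.09 in fasted WT muscle, so that the slide 1 arrays are apart and the slide 2 arrays are not.

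The slow isoforms differed between single mice as a group. Averaged after centring each gene, they were at 0.54, 0.54, 0.01 and 0.15 in fasted mFoxO-TKO, 0.52, 0.02, -0.34 and -0.39 in fed mFoxO-TKO, 0.07, -0.02, -0.27 and 0.09 in fasted WT and -0.05, -0.48, -0.34 and 0.02 in fed WT muscle. The fasted groups overlapped, since 2 mFoxO-TKO mice were near the WT values. Within slide 1 the median difference of the slow isoforms (mFoxO-TKO minus WT, fasted) was 0.59 over the 8 genes that could be fitted, and within slide 2 it was 0.17 over 9. In fed muscle these medians were 0.54 and -0.20. The fast average was at 0.51, 0.14, -0.22 and -0.20 in fasted mFoxO-TKO and 0.28, 0.24, -0.17 and -0.12 in fasted WT muscle, where slide 1 arrays were the higher ones in both groups.

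As a within-mouse measure, the difference of a fast and a slow isoform on the same array was taken for 6 pairs. In fasted muscle Tnnc2 minus Tnnc1 was 0.81 lower and Myh4 minus Myh7 0.45 lower in mFoxO-TKO than in WT mice, both without overlap of the arrays. The other 4 pairs (Tnni2 and Tnni1, Tnnt3 and Tnnt1, Mybpc2 and Mybpc1, Myoz1 and Myoz2) were lower by 0.67, 0.34, 0.02 and 0.06, with overlap. Without fasted WT replicate 4 the first of these was 0.92 lower, without overlap, while leaving out any other fasted array kept its overlap. In fed muscle all 6 pairs overlapped, with values from -0.74 (Tnnc2 minus Tnnc1) to 0.00 (Myoz1 minus Myoz2). The -0.74 was -0.31 without fed mFoxO-TKO replicate 1, where the Tnnc2 spot lies in an area shifted by -0.72. Without fed WT replicate 4 this pair and those of Myh4, Tnni2 and Tnnt3 no longer overlapped in fed muscle (-0.94 for Tnnc2 minus Tnnc1). Leaving out any other fed array kept these pairs overlapping, and smaller groups separate more easily. With fasting, Myoz1 minus Myoz2 fell by 0.49 in mFoxO-TKO muscle without overlap and by 0.42 in WT muscle with overlap. These pair differences are descriptions with no test. How often pairs of other genes show no overlap was not counted, so separation of a pair has no background beside it.

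Several genes have more than 1 probe: 13 of 45, with 19 further probes. Values of further probes, here and above, come from a separate fit of the kept probes (28572), adjusted over probes and not over genes. Of these 19, 1 passed for fasting in mFoxO-TKO, 3 for fasting in WT, 2 for knockout in fasted muscle and 0 for knockout in fed muscle. In the gene fit 8.51%, 20.8%, 9.41% and 1.02% of all genes passed. The share of all kept probes in the probe fit, which would be the matching background, is not given here. The clearest split was in Tpm1, the gene of α-tropomyosin, whose transcripts are spliced differently in striated muscle and in other cells. Its brightest probe was at 9.68, 9.21, 8.73 and 8.61 in fasted mFoxO-TKO, 9.18, 8.97, 8.69 and 8.55 in fed mFoxO-TKO, 9.36, 9.26, 8.75 and 8.74 in fasted WT and 9.21, 9.10, 8.85 and 8.82 in fed WT muscle. These groups overlapped (0.03 ± 0.23 for fasting in WT).

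The dimmest Tpm1 probe was at -2.11, -1.59, -2.40 and -1.82 in fasted mFoxO-TKO, -1.54, -1.66, -1.32 and -1.14 in fed mFoxO-TKO, -5.14, -2.83, -3.36 and -2.82 in fasted WT and -1.61, -1.16, -1.46 and -1.15 in fed WT muscle. All 4 fasted WT arrays lay below the other 12, and the probe was not well above background on fasted WT replicates 1 and 3. It fell by 2.19 ± 0.39 with fasting in WT muscle (adjusted p = 0.000855, limma) and was 1.56 ± 0.39 higher in fasted mFoxO-TKO than in fasted WT muscle (adjusted p = 0.0174). Its change with fasting in mFoxO-TKO muscle was -0.57 ± 0.39 (adjusted p = 0.44), and the interaction was 1.63 ± 0.55 (adjusted p = 0.22). Without fasted WT replicate 1, the lowest array, the WT change was -1.66 and the difference in fasted muscle 1.02 (adjusted p = 0.00848). Without fasted mFoxO-TKO replicate 2 that difference was 1.43 and did not pass (adjusted p = 0.0563). The second dimmest probe fell by 1.01 ± 0.27 in WT muscle (adjusted p = 0.0157) and was at -0.23 ± 0.27 in mFoxO-TKO muscle (adjusted p = 0.69). On fasted mFoxO-TKO replicates 1 and 3 its spots, at 1.57 and 0.03, lie in areas shifted by 1.06 and -1.11. The mFoxO-TKO value was -0.55 without replicate 1 (adjusted p = 0.11), -0.04 without replicate 3 (adjusted p = 0.95) and -0.42 without spots in uneven areas (adjusted p = 0.31), so its size is uncertain. Which transcripts each probe reads was not tested. Beside these values, fibroblast markers were also lower in fasted muscle: 3 of 6 fell in mFoxO-TKO (median -0.86) and 4 of 6 in WT muscle (median -1.06), against 4.22% and 9.57% of all genes. Dcn did not pass (0.01 and 0.09). Of 5 macrophage markers tested, 1 fell in each genotype (medians -0.73 and -0.57). The summed signal of the fibroblast markers, in multiples of the 75th percentile, was 344 to 405 in fasted and 527 to 735 in fed mFoxO-TKO muscle. In WT muscle it was 353 to 577 fasted and 590 to 680 fed. The part of either cell type in the Tpm1 values was not tested.

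**Figure D5:**
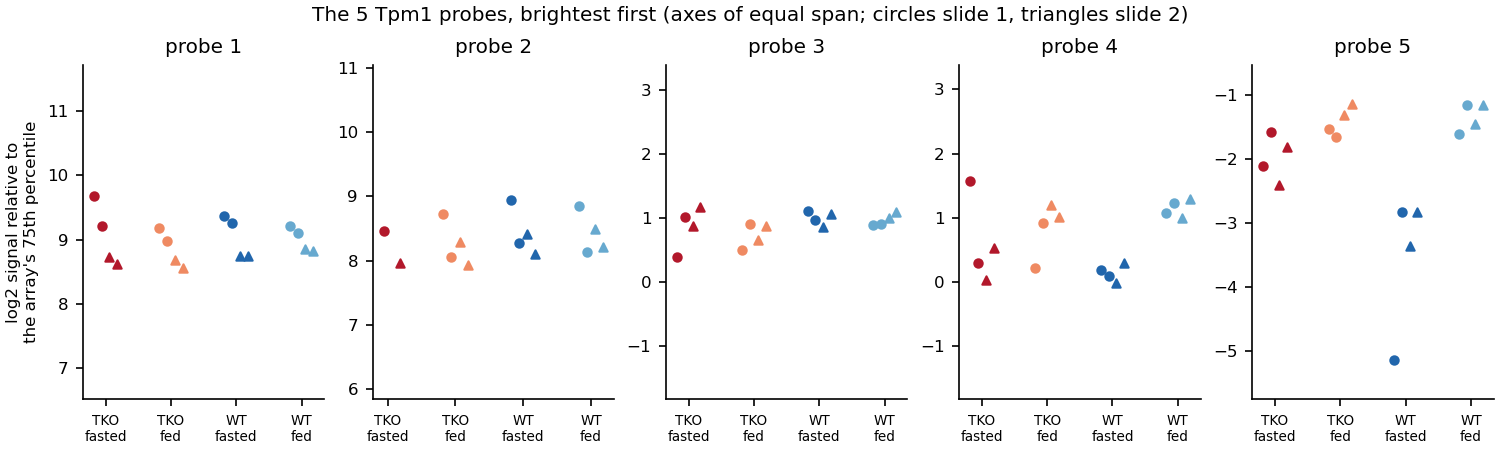
Signal (log2, relative to the array's 75th percentile) of the 5 Tpm1 probes on each array, brightest first, on axes of equal span; circles are slide 1, triangles slide 2. Probes 1 to 3 overlap between groups, while on probe 5 the fasted WT arrays, from -5.14 to -2.82, lie below all others; 2 fasted mFoxO-TKO arrays have no value on probe 2.

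Of 4 titin probes, the third brightest passed where the brightest did not. It was at 4.20, 3.90, 3.88 and 3.93 in fasted and 3.60, 3.44, 3.37 and 3.45 in fed mFoxO-TKO muscle, and at 3.76, 3.39, 3.32 and 3.64 in fasted and 3.43, 3.57, 3.48 and 3.65 in fed WT muscle. The fasted mFoxO-TKO arrays lay above the other 12. It rose by 0.51 ± 0.13 with fasting in mFoxO-TKO muscle (adjusted p = 0.0237, limma) and was 0.45 ± 0.13 higher in fasted mFoxO-TKO than in fasted WT muscle (adjusted p = 0.0375). The first call was lost without fed mFoxO-TKO replicate 2, 3 or 4 (adjusted p up to 0.0716), with values from 0.44 to 0.56 over all arrays left out. The second was lost without any of 10 of the 16 arrays (0.38 to 0.53, adjusted p up to 0.111). The brightest titin probe did not pass (0.30 ± 0.22 and 0.13 ± 0.22 in these comparisons). On fasted mFoxO-TKO replicate 1 its spot lies in an area shifted by 0.90. Tpm3, a slow tropomyosin, had 3 probes, none of which passed: with fasting in mFoxO-TKO muscle they changed by 0.49 ± 0.23, -0.24 ± 0.16 and 0.52 ± 0.21, so the second had the opposite sign.

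A list of 45 further sarcomere genes, 41 of them tested, was described in the same way. It too was chosen with earlier results of these data known. With fasting 5 rose and 3 fell in mFoxO-TKO muscle (19.5%) and 5 rose and 2 fell in WT muscle (17.1%), beside 8.51% and 20.8% of all genes. Their median changes were 0.06 and 0.03. Hspb7, a small heat shock protein of muscle that works with filamin C, rose by 1.76 ± 0.29 in mFoxO-TKO (adjusted p = 0.00187, limma) and by 1.64 ± 0.29 in WT muscle (adjusted p = 0.000864). Kbtbd13, a ubiquitin ligase adaptor of the thin filament, fell by 1.44 ± 0.18 and 1.29 ± 0.18 (adjusted p = 0.000281 and 0.000124). Both showed no overlap of fasted and fed arrays. In WT muscle Fhl3, a LIM protein, rose by 1.34 ± 0.22 (adjusted p = 0.000573), and Synpo2, a Z-disc partner of filamin, fell by 1.38 ± 0.30 (adjusted p = 0.00352). Leaving out any 1 array lost none of these 6 calls. The call of Synpo2 was lost in the mean over its probes (-0.41, adjusted p = 0.45). Within 1 slide it was lost for Synpo2 and Kbtbd13 on slide 1 and for Hspb7 in mFoxO-TKO muscle on slide 2.

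The developmental isoforms Myh3, embryonic myosin, and Tnnt2, cardiac and embryonic troponin T, were high in 3 fed mFoxO-TKO mice. So was the embryonic light chain Myl4, at 6.99, 6.64, 5.72 and 1.87, against 3.20 to 3.37 in fed WT muscle. Perinatal myosin, Myh8, was not: it averaged 7.98 in fed mFoxO-TKO (n = 3 arrays) and 8.32 in fed WT muscle. Neither Myl4 nor Myh8 passed for the knockout in fed muscle. Myh3 was at 1.31, 1.57, 0.92 and 1.93 in fasted mFoxO-TKO, 6.34, 5.96, 5.50 and 0.60 in fed mFoxO-TKO, 1.13, -0.14, 0.03 and 0.47 in fasted WT and 0.32, 0.23, 0.33 and 0.36 in fed WT muscle. Fed mFoxO-TKO replicate 4 was not among the high mice, and the fasted and fed mFoxO-TKO groups overlapped. Myh3 fell by 3.17 ± 0.88 with fasting in mFoxO-TKO muscle (adjusted p = 0.0356, limma) and was 4.29 ± 0.88 higher in fed mFoxO-TKO than in fed WT muscle (adjusted p = 0.0267), 1 of 41 genes (2.44%) against 1.02% of all genes. Each call of Myh3 was lost without any of 7 of the 16 arrays (adjusted p up to 0.119 and 0.107) and on slide 2 alone (-1.62 and 2.70). Tnnt2 fell by 2.59 ± 0.62 with fasting in mFoxO-TKO muscle (adjusted p = 0.0171), a call lost without fed mFoxO-TKO replicate 2 (adjusted p = 0.0644) and on slide 2 alone (-1.03). Its difference in fed muscle, 2.62 ± 0.62, did not pass (adjusted p = 0.0636). Beside these values, all 5 macrophage markers tested had estimates above 0 for the knockout in fed muscle (median 0.57, 0 passed). Their summed signal was 20.1 to 41.0 times the 75th percentile in fed mFoxO-TKO and 13.9 to 24.1 times in fed WT muscle. That of 4 satellite cell markers was 7.95 to 13.6 and 6.76 to 7.81 times, a sum in which the brightest marker weighs most. Of these 4, 3 had estimates above 0 for the knockout in fed muscle (median 0.29, lowest -0.50, 0 passed). The satellite cell marker Myf5 was well above background on no array. Their part in the Myh3 and Tnnt2 values was not tested.

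In fasted muscle 1 gene of this list passed for the knockout, the cytoskeletal linker gene Obsl1, at 0.71 ± 0.15 (adjusted p = 0.0057), 2.44% of the 41 against 9.41% of all genes, with 5.33 to 5.89 in mFoxO-TKO and 4.62 to 4.98 in WT mice. It did not pass within either slide alone (adjusted p = 0.11 and 0.0623).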

How the data were processed

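Total RNA of 16 quadriceps samples was labelled with Cy3 and hybridised to 1-colour Agilent mouse arrays, per the labels. Feature Extraction 11.0.1.1 quantified the spots per the file headers, while the submitters' processing notes name version 9.5. The intensities used are the deposited processed signals, background-subtracted within each array and not scaled between arrays per the file headers. Deposited median signals (intensity) served the background alternative, as the files hold no mean signal. Marks of 0 or 1 for spots well above background, saturated or uneven come from the scanner software per the file headers. The authors' deposited value table holds whole-number scores for 18324 spots, with a 75th percentile of 100 and medians of 22 to 25. Scores of 100 or more were the processed signal times 1 factor per array within 2%, so linear and not centred. Lower scores, where rounding weighs more, were not checked this way.

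Repeat spots of 59305 were averaged to 55681 probes, and 28331 had a symbol through their RefSeq accession. Uneven spots were left out, and probes had to be well above background throughout at least 1 group, which gave 21281 genes. The brightest kept probe stood for a gene. Log2 signals minus the array's 75th percentile of the 16 arrays entered a model of 4 group means (lmFit, then eBayes, of limma 3.58.1, under R 4.3.3), with 5 contrasts and Benjamini-Hochberg adjustment over all genes. The fit was tested on simulated data. The number of arrays limits precision. No per-sample columns were left unused.

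Array values are given for genes that passed in at least 1 contrast, up to 5 per role and contrast, and for the fast and slow isoform of a pair where 1 of them passed; other genes appear by range and count. Of the further sarcomere genes, up to 4 with the largest passing change per contrast are named. Values of Myh4, Ankrd1, Actn2 and the Tpm1 and Ttn probes were chosen after they were seen. The 45 genes and all lists were chosen with earlier results of these data known, and isoforms were assigned to fibre types from general knowledge. Alternatives were other background correction, scaling, filters, probes, slide and replicate blocks, single slides and leaving out each array. Leaving out spots in uneven areas (11 by 11 spots, 0.7 log2) was added after seeing the data. The files name genome build mm9 and the promoter table GRCm38.p6, so coordinates are given for the printed promoters only.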

Additional observations from a re-analysis of the deposited data

Results flagged for a closer look

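The fasting response of Mybph differed between the genotypes in a test of the difference itself, by 1.56 on the log2 scale. This call was lost in 17 of 28 alternatives: 14 that left out 1 array, each slide alone (adjusted p = 0.54 and 0.0717) and no filter on dim probes. In 172 sets of 4 arrays, 2 had 1 array far from the others, where chance would flag about 1 in 20. Mybpc1 was at 7.51 in fed WT replicate 1 and at 7.23 to 7.28 in the other fed WT arrays. Actn2 was at 5.48 in fasted mFoxO-TKO replicate 1 and at 6.81 to 6.96 in the other fasted mFoxO-TKO arrays, and its spot there lies in an area shifted by -1.80.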

How the results depend on the processing

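Across 558 repeats of the 20 called values under the alternatives, 494 kept their call, 64 lost it and 0 changed sign. The count of genes called was 2 for fasting in mFoxO-TKO, 3 for fasting in WT, 0 for knockout in fasted muscle and 0 for the interaction on slide 1 alone, and 0 for the interaction on slide 2 alone, with 2 arrays per group. For knockout in fed muscle it was 1 (Mylk2, adjusted p = 0.000708 to 0.00647) with quantile normalization, the percentile of probes well above background on all arrays, the authors' value table, slide as a block and the replicate block. For knockout in fasted muscle it was 6 with the first 3 of these, beside 12.3%, 15.5% and 20.6% of all genes called. For the interaction it was 2 with the value table and 0 with no filter on dim probes. The value table lists 37 of the 45 genes.

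Leaving out 1 array gave 5 to 7 genes for fasting in mFoxO-TKO, 7 to 12 for fasting in WT, 2 to 4 for knockout in fasted, 0 to 0 for knockout in fed muscle and 0 to 1 for the interaction. Without spots in uneven areas, or without fasted mFoxO-TKO replicate 1, the counts in this order were 6, 12, 3, 0 and 1. Same-numbered arrays share a slide and an array row. They deviated together with r from 0.06 to 0.37 over genes (median 0.18), against a median of 0.10 for other numbers on the same slide. The replicate block gave 6, 12, 3, 1 and 1 genes, and for fasting in WT added Mybpc1 (0.30, adjusted p = 0.041) and Myoz3. No filter on dim probes ended 6 calls, which slide 1 alone ended too, among others: Myoz2 in both genotypes (adjusted p = 0.0657 and 0.0702 without the filter), Lmod3 (0.0969), Ankrd23 (0.11), Myoz3 for knockout in fasted muscle (0.0586) and the Mybph interaction (0.14). No filter also ended the Myh3 and Tnnt2 calls (adjusted p from 0.0522 to 0.0994). Alternatives for further probes, other sarcomere genes and isoform pairs were chosen after seeing the data. Over all genes the count for fasting in WT ran from 875 (slide 1 alone) to 6353 (replicate block), for fasting in mFoxO-TKO from 127 to 3181, for knockout in fed from 33 to 422, for knockout in fasted from 417 to 3372 and for the interaction from 7 to 699. Scaling to probes above background on all arrays moved the median of all genes for fasting in WT to -0.11, against 0.02, and the share of higher calls to 37.2%. For knockout in fasted muscle that scaling moved it to 62.5%. Depth, as signal over background, limited none of the 45 genes.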
